A study of Mus musculus with 6 samples.

Results

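The 35 genes described here act in G2 phase and mitosis, and were taken as a fixed list of named genes out of 19935 genes that the array's annotation names. Of the 35, 34 had at least 1 probe set carrying their symbol alone, and 37 probe sets did so in all. The remaining gene, Ccnb1, was left out, as its symbol stood beside no probe set in the annotation used. All 34 genes kept at least 1 probe set above the filter on dim probe sets, and 36 of the 37 probe sets passed it. The probe set left out was a second one for Top2a, which lay at a log2 level between 6.45 and 6.71 in all 6 arrays, under the filter's 8.79.

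Expression was measured on 6 one-colour mouse arrays of hematopoietic stem cells (HSC), which renew themselves in bone marrow and give rise to every blood lineage. Of these, 3 arrays were of Selp-/- mice, which lack Selp, the gene for P-selectin, a receptor for cell adhesion, and 3 were of wild-type (WT) mice, and both genotypes were of strain C57BL/6 per the labels. The study asked which genes P-selectin controls in HSC. The labels number the arrays 1 to 3 within each genotype, and do not say what a number stands for. Age, treatment and the sort that gave the cells are not given in the sources used here, and no label ties the arrays to different animals. The p-values therefore speak only of the spread among these 6 samples, which may be technical.

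A cell that divides makes the proteins of mitosis anew in each cycle. Cyclins A and B activate the kinase Cdk1 to bring the cell into mitosis, the Aurora and Polo kinases build the spindle, kinetochores hold the chromosomes to it, and the spindle checkpoint holds back the anaphase-promoting complex until every chromosome is attached. The transcripts rise in late S phase and G2 and are low in resting cells, and adult HSC are known to rest most of the time. A level on an array of many cells therefore does not count dividing cells: more cells in G2 or mitosis and more RNA of these genes per cell cannot be told apart.

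Before any result on these genes, the arrays numbered 3 stood apart. The first principal component of all tested probe sets held 68.0% of the variance and set Selp-/- 3 and WT 3 against the other 4 arrays. Of 14 tested HSC genes, 11 were called lower in the arrays numbered 3 and 1, Gata2, higher, by 0.86, and Hlf, a transcription factor of HSC, lay at log2 levels of 8.81 and 8.88 in Selp-/- 3 and WT 3, against 12.13 to 12.53 in the other 4 arrays. All 7 tested mast cell and basophil genes, of 11 listed, were called higher there (limma, adjusted p under 0.05). Of all tested probe sets 11.7% were called lower there and 9.13% higher. Array medians ran from 563 to 751 in deposited intensity. Deviations from the genotype means correlated at 0.81 between Selp-/- 3 and WT 3. Among the arrays numbered 1 and 2 they correlated at 0.43 and 0.53 for equal numbers and at 0.51 (Selp-/- 1 with WT 2) and 0.37 (Selp-/- 2 with WT 1) for unequal ones. The genotype means include the arrays numbered 3, so these correlations cannot show whether numbers 1 and 2 differ. The second principal component, with 10.2% of the variance, did separate them. It held Selp-/- 1 and WT 1 at 8.58 and 18.2, against -8.45 and -16.0 for Selp-/- 2 and WT 2. Results are given by genotype and by number, and the genotype comparison also without the arrays numbered 3.

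The promoters of G2 and mitosis genes are known for a pair of elements, the cell cycle genes homology region, read by the DREAM and MuvB complexes, and the CCAAT box, read by NF-Y. RefSeq promoter windows of 300 bases, from 250 before the start of the gene to 50 after it (GRCm38.p6), were found for 30 of the 35 genes. They are shown for 5 genes on which the results below turn, 5′ to 3′ on the strand of the gene, with every match to TTTGAA or TTTAAA (letters of the homology region) and to CCAAT in capitals, on either strand, so that a match on the other strand reads TTCAAA or ATTGG.
Mki67 (chr7:135716330-135716629, minus strand): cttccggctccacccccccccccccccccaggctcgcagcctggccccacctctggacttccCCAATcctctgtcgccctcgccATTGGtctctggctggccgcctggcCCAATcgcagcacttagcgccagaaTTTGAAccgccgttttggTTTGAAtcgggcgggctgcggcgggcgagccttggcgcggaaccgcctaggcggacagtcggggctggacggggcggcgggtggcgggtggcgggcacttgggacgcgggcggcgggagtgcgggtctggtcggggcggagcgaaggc
Plk1 (chr7:122159185-122159484, plus strand): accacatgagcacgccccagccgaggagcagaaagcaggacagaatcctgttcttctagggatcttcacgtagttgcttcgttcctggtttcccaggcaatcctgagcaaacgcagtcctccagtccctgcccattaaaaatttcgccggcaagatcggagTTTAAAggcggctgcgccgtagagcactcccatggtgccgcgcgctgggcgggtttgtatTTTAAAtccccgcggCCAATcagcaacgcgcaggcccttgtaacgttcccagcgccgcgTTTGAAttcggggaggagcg
Cdc20 (chr4:118437294-118437593, minus strand): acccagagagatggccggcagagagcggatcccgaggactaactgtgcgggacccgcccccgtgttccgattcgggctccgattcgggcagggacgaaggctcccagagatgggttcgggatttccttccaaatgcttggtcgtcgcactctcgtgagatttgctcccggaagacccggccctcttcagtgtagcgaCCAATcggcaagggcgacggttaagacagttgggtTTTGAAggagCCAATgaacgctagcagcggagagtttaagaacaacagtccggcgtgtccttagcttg
Cdk1 (chr10:69352863-69353162, minus strand): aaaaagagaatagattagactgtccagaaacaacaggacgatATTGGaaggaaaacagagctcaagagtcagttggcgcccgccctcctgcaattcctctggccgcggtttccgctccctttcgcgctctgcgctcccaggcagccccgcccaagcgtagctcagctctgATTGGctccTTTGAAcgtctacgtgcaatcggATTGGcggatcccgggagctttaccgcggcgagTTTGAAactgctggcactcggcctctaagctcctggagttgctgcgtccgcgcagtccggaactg
Ube2c (chr2:164769679-164769978, plus strand): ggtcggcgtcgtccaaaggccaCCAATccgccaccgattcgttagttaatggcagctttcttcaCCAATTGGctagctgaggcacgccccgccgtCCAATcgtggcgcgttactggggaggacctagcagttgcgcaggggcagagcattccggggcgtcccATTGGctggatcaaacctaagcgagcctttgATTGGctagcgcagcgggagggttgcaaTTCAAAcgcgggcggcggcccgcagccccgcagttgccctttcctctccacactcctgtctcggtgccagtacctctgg

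In Mki67 the capitals mark 3 CCAAT and 2 TTTGAA, with the TTTGAA starting at -116 and -98 from the start of the gene. Plk1 holds 2 TTTAAA, 1 CCAAT and, past the start, 1 TTTGAA at 31. Cdc20 holds 1 TTTGAA at -18 between 2 CCAAT at -53 and -8. Cdk1 holds 3 CCAAT, all reading on the other strand, and 2 TTTGAA, at -71 and -15. Ube2c holds 6 CCAAT, of which a pair on opposite strands at -186 and -183 overlaps, and 1 TTTGAA on the other strand at -29. Over the 30 genes, TTTGAA was present in 70% of windows, against 18.1% of the windows of all 27025 genes in the table. CCAAT was present in 83.3%, against 37.9%, and either form of the homology region together with CCAAT in 73.3%, against 10.9%. A longer list of other G2 and mitosis genes held the combination in 38.7% of 62 windows, TTTGAA in 51.6% and CCAAT in 64.5%. S phase genes held the combination in 14.3% of 28 windows, TTTGAA in 10.7% and CCAAT in 60.7%. Nusap1, Nuf2 and Tacc3 held none of the 3 words in this window. Such matches describe the letters and were not tested as binding sites.

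The level of the G2 and mitosis genes followed the array number more than the genotype. Relative to its own mean over the 6 arrays, the median probe set of the 36 lay at 0.22, -0.21 and 0.07 in Selp-/- 1, 2 and 3, and at 0.11, -0.19 and -0.01 in WT 1, 2 and 3 (log2). The arrays numbered 1 were thus high and those numbered 2 low in both genotypes, with those numbered 3 between. Of the 36 probe sets, 24 had their highest value in an array numbered 1, 12 in one numbered 3 and 0 in one numbered 2, while among all 17289 tested probe sets the shares were 27.5%, 36.5% and 36%. Their lowest value fell in an array numbered 1 for 0 of the 36, in one numbered 2 for 28 and in one numbered 3 for 8, against 28.4%, 30.7% and 40.9% of all. The summed deposited intensity of the 36 probe sets, divided by the median of its array, was 136, 84.7 and 117 in Selp-/- 1, 2 and 3, and 115, 87.3 and 105 in WT 1, 2 and 3. The same sum over all 17289 tested probe sets also ran higher in number 1 than in number 2. It was 47943.3, 42345.5 and 45243.1 in Selp-/- 1, 2 and 3, and 46392, 43026.7 and 44276.4 in WT 1, 2 and 3.

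**Figure D1:**
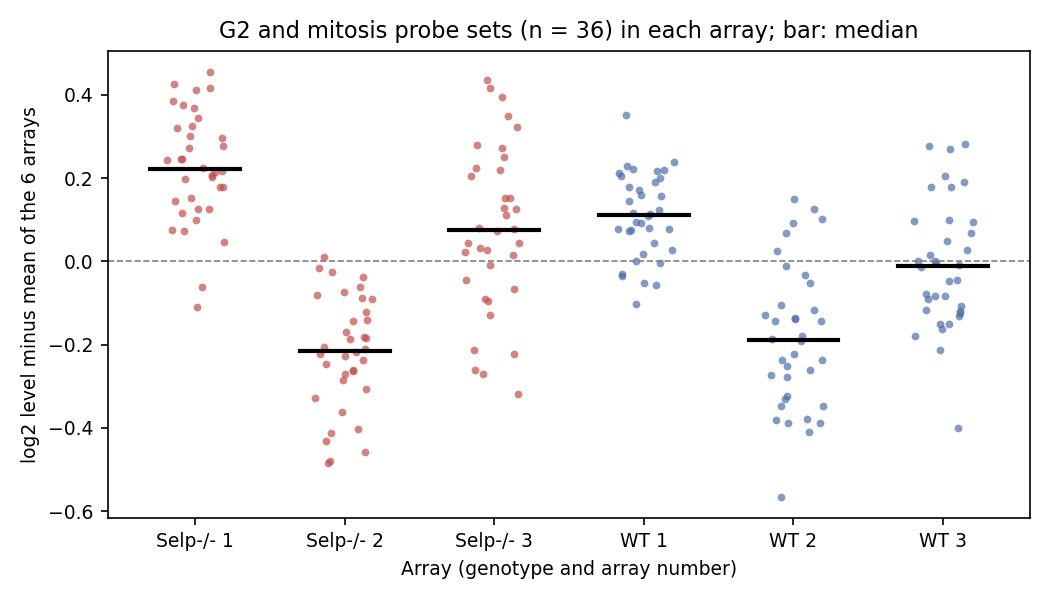
Each point is 1 of the 36 tested probe sets of G2 and mitosis genes in 1 array, on the y axis as log2 level minus the mean of that probe set over the 6 arrays, with Selp-/- arrays left and WT arrays right and a bar at the median. The medians are positive at 0.22 and 0.11 in Selp-/- 1 and WT 1 and negative at -0.21 and -0.19 in Selp-/- 2 and WT 2.

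Between genotypes, no G2 or mitosis gene passed the test. At an adjusted p of 0.05 limma called 0 of the 36 probe sets in either direction, as it did of all 17289 (0%). At an unadjusted p under 0.05 the 36 again gave 0, while 0.428% of all tested probe sets were higher and 0.278% lower. With the array number as a block 0 of the 36 reached an unadjusted p under 0.05, against 1.89% higher and 1.75% lower of all. In no probe set did the 3 Selp-/- arrays lie wholly above the 3 WT arrays or wholly below them, while 2.24% and 1.97% of all tested probe sets did so. The differences ran from -0.17 to 0.22 on the log2 scale, with 30 of 36 above 0 and a median of 0.06, against 51.8% above 0 and a median of 0.01 over all tested probe sets. That count was 13 of 36 without Selp-/- 1 and 15 of 36 without WT 2, and 22 to 33 of 36 without any other array. Leaving out 1 array makes the array numbers unequal between genotypes, so these counts cannot tell the weight of an array from that of its number. In the arrays numbered 1 and 2 alone, 25 of 36 lay above 0 and 0 were called. At array number 1 the median difference was 0.13, at number 2 it was -0.03 and at number 3 it was 0.05.

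Cdc20, which activates the anaphase-promoting complex, differed most, at log2 levels of 10.53, 9.81 and 10.23 in Selp-/- 1, 2 and 3, against 10.12, 9.81 and 9.97 in WT 1, 2 and 3. Its groups overlapped, and the difference of 0.22 had an SE of 0.20 and a 95% interval from -0.26 to 0.71 (limma, adjusted p = 1). With the array number as a block the SE was 0.12 and the interval ran from -0.05 to 0.50. Cdca3, a factor of mitotic entry, measured 10.09 ± 0.16 in Selp-/- and 9.87 ± 0.42 in WT HSC (SD, n = 3 each), and WT 2 was the low array at 9.41. Ccna2, cyclin A2, measured 12.05 ± 0.41 and 11.86 ± 0.26 in Selp-/- and WT HSC. Both arrays numbered 1 lay above both numbered 2 in that gene, while Selp-/- 3, at 12.18, lay between the arrays numbered 1 and WT 3 was at 11.84. Ttk, a checkpoint kinase, measured 9.40 ± 0.26 in Selp-/- and 9.23 ± 0.19 in WT HSC, and was higher in Selp-/- at each array number, by 0.25, 0.11 and 0.16.

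On the lower side, Nuf2, which with Ndc80 binds kinetochores to microtubules, measured 9.91, 9.33 and 9.94 in Selp-/- 1, 2 and 3, against 10.003, 9.88 and 9.82 in WT 1, 2 and 3. Selp-/- 2 alone was low, and the difference of -0.17 had a 95% interval from -0.61 to 0.27, or from -0.51 to 0.17 with the array number as a block. Nusap1, a spindle protein that bundles microtubules, measured 10.91 ± 0.28 in Selp-/- and 11.07 ± 0.24 in WT HSC, and was lower in Selp-/- at each array number. It was the only probe set of the 36 to be so, while 11.2% of all tested probe sets were. Kif20a, Cdc20, Cenpa, Tacc3 and Ttk were higher in Selp-/- at each number, 5 of 36 against 12.6% of all.

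Several of the best known markers of division hardly differed in mean. Mki67, which coats mitotic chromosomes and gives the Ki-67 antigen, measured 11.92 ± 0.37 in Selp-/- and 11.91 ± 0.35 in WT HSC, and the 95% interval of the difference, from -0.58 to 0.59, left room for a change of either sign. With the array number as a block the interval of Mki67 was narrower, from -0.26 to 0.28, and still held both signs. Top2a, the topoisomerase that untangles chromosomes, measured 11.43 ± 0.24 and 11.35 ± 0.18 in Selp-/- and WT HSC. Cdk1 measured 11.24 ± 0.22 and 11.26 ± 0.13. Smc4, a subunit of condensin, and Tpx2, which activates Aurora A on the spindle, differed least, with differences of 0.0012 and 0.00007. The sign in Cdk1 turned with the scaling, from -0.02 as reported to 0.05 with median centring and 0.13 without normalization. That in Mki67 turned to -0.03 in the arrays numbered 1 and 2 alone.

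By role, the median difference was 0.13 over 8 probe sets of cyclins, Cdk1 and their partners, 0.12 over 5 of the spindle checkpoint and anaphase-promoting complex, and 0.07 over 3 of the chromosomal passenger complex. It was 0.02 over 5 of kinetochore and centromere, 0.01 over 9 of spindle and cytokinesis, 0.01 over 3 mitotic kinases and 0.01 over 3 of chromosome structure. Of the other cell cycle genes, 0 of 81 probe sets of a longer list of G2 and mitosis genes, 0 of 35 of S phase and 0 of 20 of cell cycle inhibitors were called. Their medians were 0.03, 0.06 and 0.01. Among them Aurkc, a kinase known from germ cells, had the smallest unadjusted p, 0.0609, with a difference of 0.23 (SE 0.10, adjusted p = 1 by limma).

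**Figure D2:**
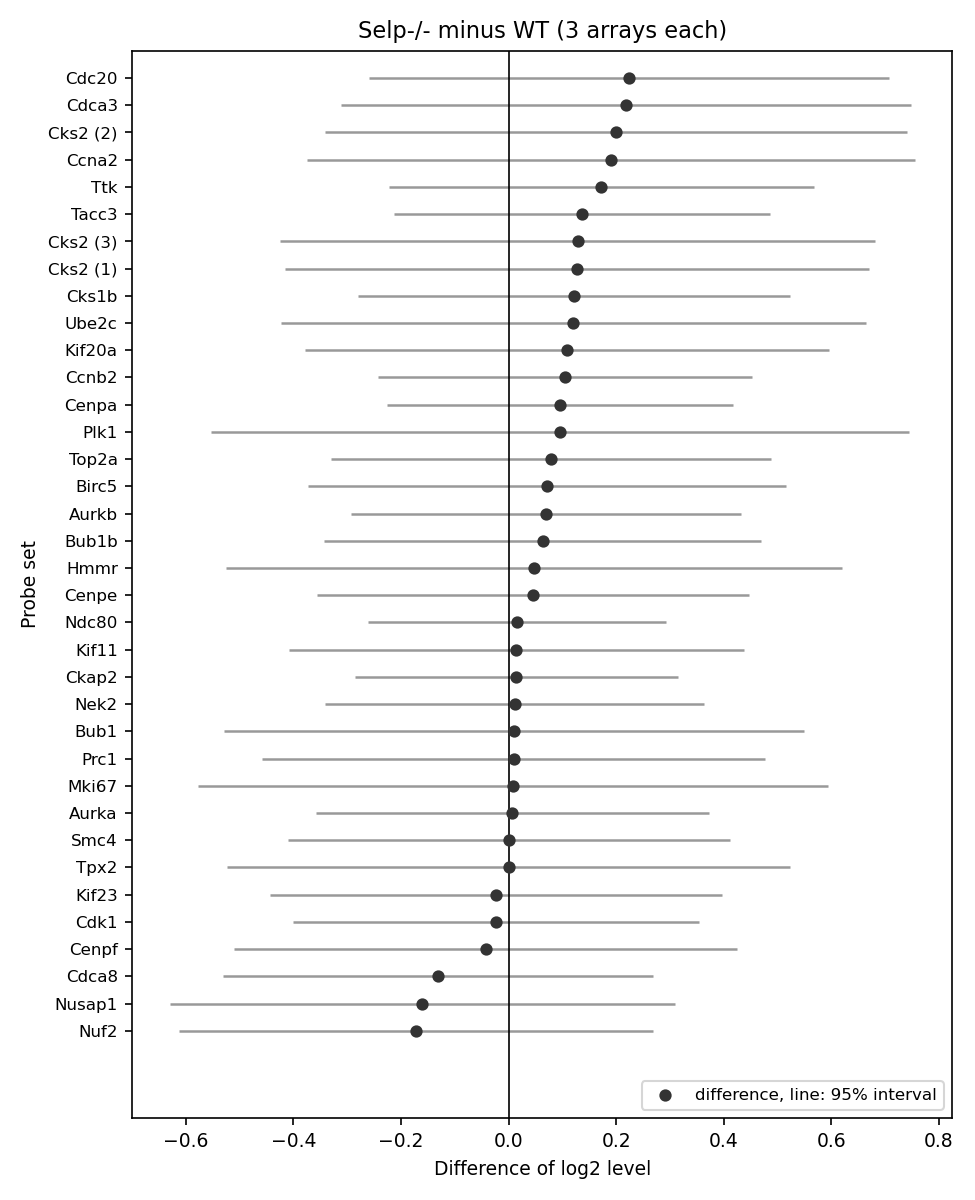
Each row is 1 of the 36 tested probe sets, with the difference of log2 level, Selp-/- minus WT, on the x axis and a line for its 95% interval (limma without the block of array number, 3 arrays per genotype). The points run from -0.17 for Nuf2 to 0.22 for Cdc20, and every line crosses 0.

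Between array numbers, the G2 and mitosis genes lay higher in the arrays numbered 1 than in those numbered 2, and did so in both genotypes. All 36 probe sets had a positive difference, against 47.1% of all tested probe sets, and the median was 0.39 on the log2 scale, or 1.31-fold, against -0.01 over all. Both arrays numbered 1 lay above both numbered 2 in 32 of the 36, a relation that 18.7% of all tested probe sets showed, and both lay below in 0 of the 36, against 21.2% of all. Singly, 0 of the 36 passed an adjusted p of 0.05 in limma, the lowest being 0.303 for Ccna2, while 20 of 36 had an unadjusted p under 0.05 on the higher side, against 4.70% of all, and 0 on the lower side, against 3.26%. Over all tested probe sets 8 were called higher (0.0463%) and 1 lower (0.00578%), with 2 arrays per number. Without normalization, where all probe sets shifted by 0.22, 27 of the 36 were called higher, against 7.33% of all. All 36 differences stayed above 0 under every normalization tried, and in the arrays numbered 1 and 2 fitted alone, where the median was 0.38 and 0 of the 36 were called. Without Selp-/- 1 the count above 0 was 34 of 36, and without Selp-/- 2 it was also 34.

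Ccna2 differed most, with log2 levels of 12.39 and 12.14 in Selp-/- 1 and WT 1, against 11.60 and 11.61 in Selp-/- 2 and WT 2. In the deposited intensities these were 6383.5 and 4640.5, against 2791 and 2500.5. The arrays did not overlap, and the difference of 0.66 had an SE of 0.13. Tpx2 lay at 10.73 and 10.62 in Selp-/- 1 and WT 1, against 9.98 and 10.22 in Selp-/- 2 and WT 2. Plk1, the Polo kinase that drives mitotic entry and spindle assembly, lay at 11.61 and 11.28 in Selp-/- 1 and WT 1, against 10.83 and 10.92 in Selp-/- 2 and WT 2. All these genes were low in both arrays numbered 2. Kif20a, a kinesin of the midzone and cytokinesis, lay at 10.52 and 10.30 in Selp-/- 1 and WT 1, against 9.89 and 9.82 in Selp-/- 2 and WT 2. Hmmr, a spindle protein that is also a hyaluronan receptor, lay at 9.93 and 9.68, against 9.24 and 9.27 in the same arrays. Again the arrays of the numbers did not overlap. Mki67, Top2a and Cdk1 differed by 0.29, 0.33 and 0.27, and Mki67 by 0.49 within Selp-/- but by 0.09 within WT arrays.

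Cks2, a small protein that binds Cdk1, had 3 probe sets, and all 3 lay higher in number 1, by 0.48, 0.50 and 0.55. The annotation does not say how the 3 differ. Copies of near-identical sequence could share probes, so the values of Cks2 are uncertain. The brightest of the 3 lay at 12.08 and 11.96 in Selp-/- 1 and WT 1, against 11.43 and 11.50 in Selp-/- 2 and WT 2.

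The 4 probe sets whose arrays overlapped were those of Birc5, Kif11, Kif23 and Ckap2. Kif11, the kinesin that pushes spindle poles apart, lay at 11.60 and 11.27 in Selp-/- 1 and WT 1, against 11.18 and 11.40 in Selp-/- 2 and WT 2. In Selp-/- it was higher in number 1, and in WT it was lower. Ckap2, a spindle protein, had the smallest difference, 0.11, and lay at 9.54 and 9.35 in Selp-/- 1 and WT 1, against 9.24 and 9.43 in Selp-/- 2 and WT 2. Kif23, the motor of centralspindlin, differed by 0.31 in Selp-/- and by -0.01 in WT arrays. Birc5, survivin of the chromosomal passenger complex, showed the opposite, at -0.05 in Selp-/- and 0.47 in WT arrays. Whether the genotypes differ in this could not be tested, with 1 array per genotype and number.

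The difference was positive in every role. The median difference was 0.44 over the 8 probe sets of cyclins, Cdk1 and partners, 0.43 over the 9 of spindle and cytokinesis and 0.41 over the 5 of checkpoint and anaphase-promoting complex. It was 0.35 over the 5 of kinetochore and centromere (Cenpa, Cenpe, Cenpf, Ndc80, Nuf2), 0.35 over the mitotic kinases Aurka, Plk1 and Nek2, and 0.33 over Mki67, Top2a and Smc4. The chromosomal passenger complex of Aurkb, Birc5 and Cdca8 had the smallest, 0.24. Among the rest, Bub1, a checkpoint kinase, lay at 10.98 and 10.18 in Selp-/- 1 and 2 but at 10.54 in each of WT 1 and WT 2.

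**Figure D3:**
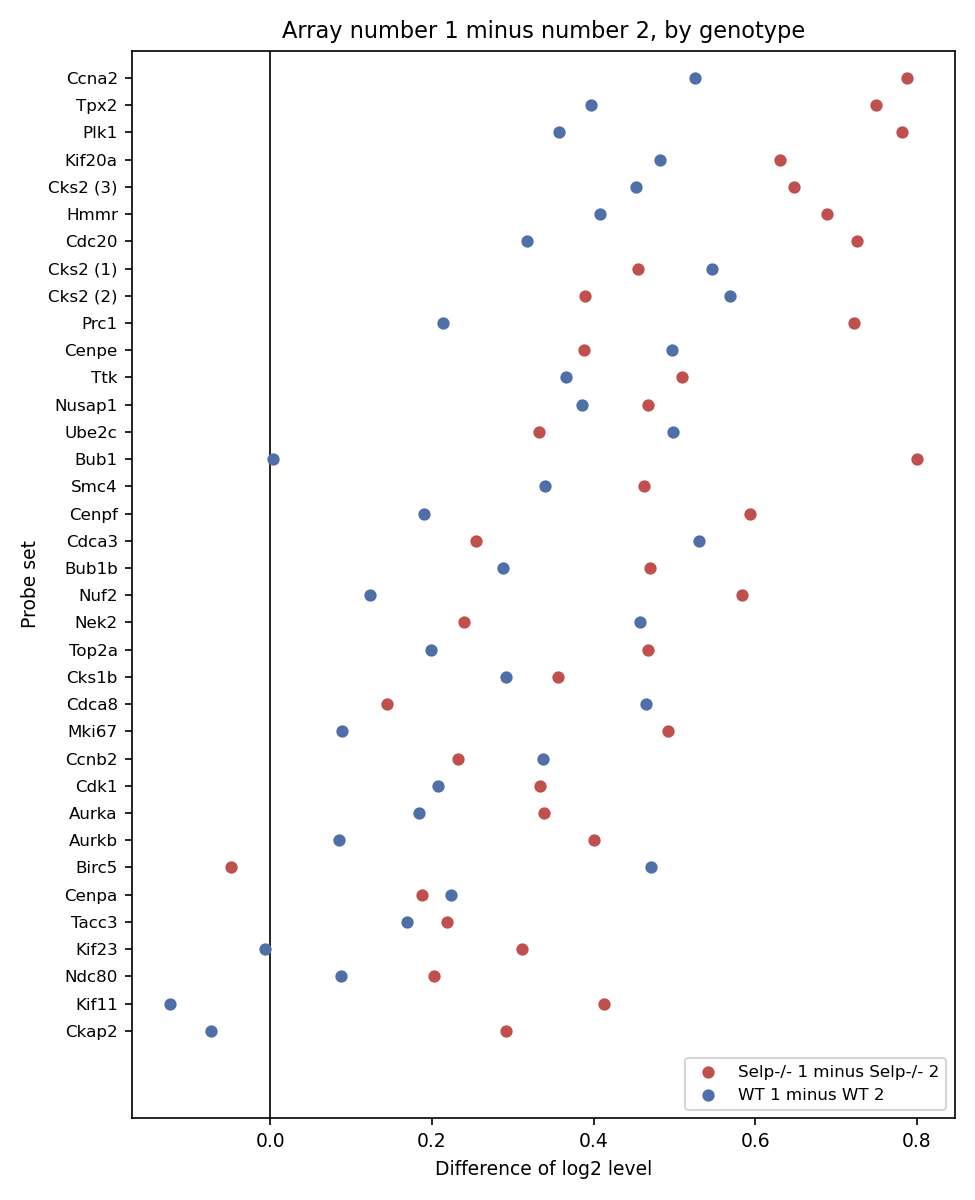
Each row is 1 of the 36 tested probe sets, with the difference of log2 level between array number 1 and number 2 on the x axis, as Selp-/- 1 minus Selp-/- 2 and as WT 1 minus WT 2 (1 array each). In Selp-/- 35 points lie above 0 and in WT 33, with medians of 0.43 and 0.33.

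Other cell cycle genes and blood cell markers moved between the same arrays. Of the longer list of G2 and mitosis genes 67 of 81 probe sets lay higher in number 1, with a median of 0.20, and 34 of 35 of S phase, with a median of 0.21, while the inhibitors had 8 of 20 above 0 and a median of -0.06. None of these was called. Kif4, a chromosome-bound kinesin, differed by 0.73 (SE 0.14) and Ccne1, cyclin E1, by 0.94 (SE 0.13), with adjusted p of 0.292 and 0.103 in limma. All 14 tested neutrophil genes were higher in number 1, with a median of 1.07 and 3 called, and their summed intensity over the array median was 83.9 to 95.3 in the arrays numbered 1, against 36.4 to 39.5 in those numbered 2. All 8 tested erythroid genes were higher, with a median of 0.93 and 2 called, and summed 45.9 in each array numbered 1, against 17.0 to 17.2. Car1, an erythroid carbonic anhydrase, lay at 13.95 and 14.01 in Selp-/- 1 and WT 1, against 11.91 and 12.08 in Selp-/- 2 and WT 2. All 14 tested HSC genes were lower in number 1, with a median of -0.31 and 0 called, and summed 43.1 to 44.8 in number 1, against 44.5 to 49.0 in number 2. The sum over all tested probe sets also ran higher in number 1 than in number 2 in both genotypes. No marker can be read as absent, since these intensities hold background. The part of other cell types in the mitotic genes was not tested.

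The arrays numbered 3 split the list. Set against the mean of numbers 1 and 2, 22 of the 36 probe sets lay higher and 14 lower, with a median of 0.05, against -0.01 over all tested probe sets, 48% of which lay above 0. Without normalization 33 of the 36 lay higher. Limma called 1 of the 36 higher and 1 lower at an adjusted p of 0.05, against 9.13% and 11.7% of all tested probe sets, or 2.78% of the 36 in each direction. This order depended on the scaling, since without normalization it called 11 of the 36 higher, or 30.6%, against 22.6% of all, and 0 lower, against 4.45%. Against number 1 alone the median was -0.18, and 20 of 36 were lower within each genotype, against 39.5% of all, and 5 of 36 higher, against 35.1%. Against number 2 alone it was 0.27, and 24 of 36 were higher within each genotype, against 33.1%, and 7 of 36 lower, against 38.2%.

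Mki67 was lower in the arrays numbered 3, at log2 levels of 11.60 and 11.51 in Selp-/- 3 and WT 3, against 12.32, 11.83, 12.15 and 12.06 in Selp-/- 1, Selp-/- 2, WT 1 and WT 2. The groups did not overlap, and the difference of -0.54 (SE 0.12), or 1.45-fold higher in numbers 1 and 2, passed the test (limma, adjusted p = 0.0223). The adjusted p of Mki67 rose to 0.0577 without Selp-/- 1, 0.0668 without Selp-/- 3, 0.0539 without WT 2, 0.168 without WT 3, 0.0564 with median centring and 0.28 without normalization, where the difference was -0.23. Plk1 was higher, at 11.63 and 11.59 in Selp-/- 3 and WT 3, against 11.61, 10.83, 11.28 and 10.92 in Selp-/- 1, Selp-/- 2, WT 1 and WT 2. Selp-/- 1 reached the level of number 3, and the difference of 0.45 (SE 0.13) lay just past the threshold (adjusted p = 0.0481). Leaving out any array but Selp-/- 1 took Plk1 past 0.05, to between 0.0592 and 0.285, as did median centring, to 0.0524, and a looser filter on dim probe sets, to 0.0509.

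The next largest differences did not pass. Ube2c, the ubiquitin-conjugating enzyme of the anaphase-promoting complex, lay at 11.57 and 11.25 in Selp-/- 3 and WT 3, against 11.20, 10.87, 11.26 and 10.76 in Selp-/- 1, Selp-/- 2, WT 1 and WT 2, a difference of 0.39 (limma, adjusted p = 0.067). It reached 0.00255 without normalization and 0.0425 with median centring. Cdca3 lay at 10.20 and 10.25 in the arrays numbered 3, against 9.41 to 10.16 in the other 4, and Birc5 at 9.95 and 9.84, against 9.29 to 9.76. Both stood above all other arrays, as did Cdk1 by a small margin, at 11.40 and 11.35, against 10.99 to 11.32. Together these 3 of 36 compare with 20.1% of all tested probe sets. Hmmr, with a difference of 0.36, reached 9.93 in Selp-/- 1 as well. Below all other arrays lay Mki67, Kif11, Kif23, Ckap2 and Ndc80, 5 of 36, against 25.1% of all. Kif23 differed by -0.32 and Cenpf, a large protein of kinetochores, by -0.30, with unadjusted p of 0.033 and 0.0387. On the lower side 3 of 36 had an unadjusted p under 0.05, against 20.2% of all, and on the higher side 6 of 36, against 15.5%.

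By role, all 3 probe sets of chromosome structure lay lower in number 3, with a median of -0.17, and so did 3 of 5 of kinetochore and centromere, with a median of -0.11. All 3 of the chromosomal passenger complex lay higher, with a median of 0.21, as did 7 of 8 of cyclins, Cdk1 and partners, with a median of 0.22, and the mitotic kinases, with a median of 0.17. Cks1b and the 3 Cks2 probe sets lay between 0.10 and 0.29. The 9 of spindle and cytokinesis were divided, from -0.32 for Kif23 to 0.36 for Hmmr, with Tacc3, which stabilises spindle microtubules, at 0.26 and Prc1, which bundles them at the midzone, at -0.04. The 5 of checkpoint and anaphase-promoting complex ran from -0.07 for Ttk and -0.05 for Bub1b to 0.24 for Bub1 and 0.39 for Ube2c, with a median of 0.03 at Cdc20. Ccnb2, cyclin B2, and Nek2, a centrosome kinase, differed least, by -0.01 and 0.01, and both turned sign with some alternatives. Top2a, at -0.17, turned to 0.12 without normalization, where all probe sets shifted by 0.20.

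**Figure D4:**
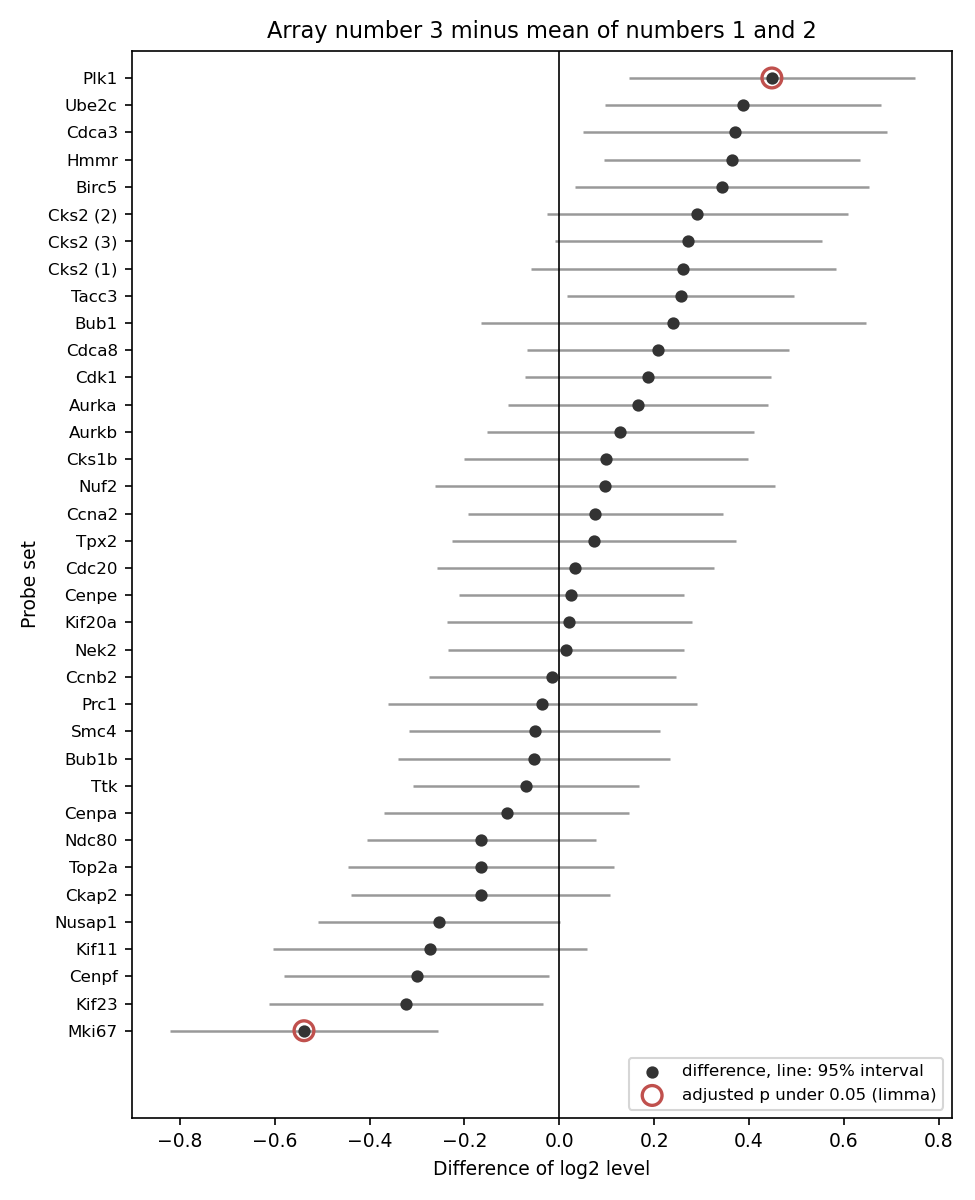
Each row is 1 of the 36 tested probe sets, with the difference of log2 level between the arrays numbered 3 and the mean of those numbered 1 and 2 on the x axis and a line for its 95% interval (limma, genotype as a term). Red rings mark the 2 probe sets called, Mki67 at -0.54 and Plk1 at 0.45.

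In the same comparison 11.7% of all tested probe sets were called lower and 9.13% higher. The longer list of G2 and mitosis genes had 9 of 81 probe sets called lower, near that share, and 0 higher, with a median of -0.02. Stmn1, a protein that takes microtubules apart, lay at 12.18 and 11.99 in Selp-/- 3 and WT 3, against 13.02 to 13.16 in the other 4 arrays, a difference of -0.97 (SE 0.09, adjusted p = 0.00076 by limma). Aspm, a spindle pole protein, differed by -0.54 (adjusted p = 0.0115) and Tubb5, a beta tubulin, by -0.30 (adjusted p = 0.0227). Of 35 probe sets of S phase, 29 lay lower in number 3, with a median of -0.18. Of these 35, 3 were called lower and 2 higher, both under the shares of all tested probe sets. Pole, a subunit of DNA polymerase epsilon, fell by 0.73, while Rrm2, a subunit of ribonucleotide reductase, rose by 0.52. Of 20 of cell cycle inhibitors and resting state genes, 10 lay above 0 and 10 below, with a median of 0.07. Of these 20, 5 were called higher, above the share of all, and 2, Cdkn2c and Foxo3, lower, near it. Foxo3 differed by -0.56 (limma, adjusted p = 0.0223). Gadd45b, a stress-induced inhibitor, differed by 1.36 and Btg1, an anti-proliferative gene, by 0.98 (adjusted p = 0.000741 and 0.00297), and Rb1, the retinoblastoma gene, by 0.87 (adjusted p = 0.00481), while Cdkn2c, the inhibitor p18, fell by 0.90.

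The lists of blood cell markers had larger median differences than the G2 and mitosis genes, in both directions. The summed intensity of 7 mast cell and basophil genes over the array median was 67.1 and 85.1 in Selp-/- 3 and WT 3, against 7.23 to 8.75 in the other 4 arrays, and their median difference was 3.42. Some of the 7 passed the filter only through the arrays numbered 3, so the direction of these values was in part fixed by it. The 14 neutrophil genes summed to 135 and 132, against 36.4 to 95.3, with 11 called higher, and the 14 HSC genes to 22.5 and 26.4, against 43.1 to 49.0, with 11 called lower and 1, Gata2, higher. The part of these cells in the levels of Mki67 and Plk1 was not tested.

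**Figure D5:**
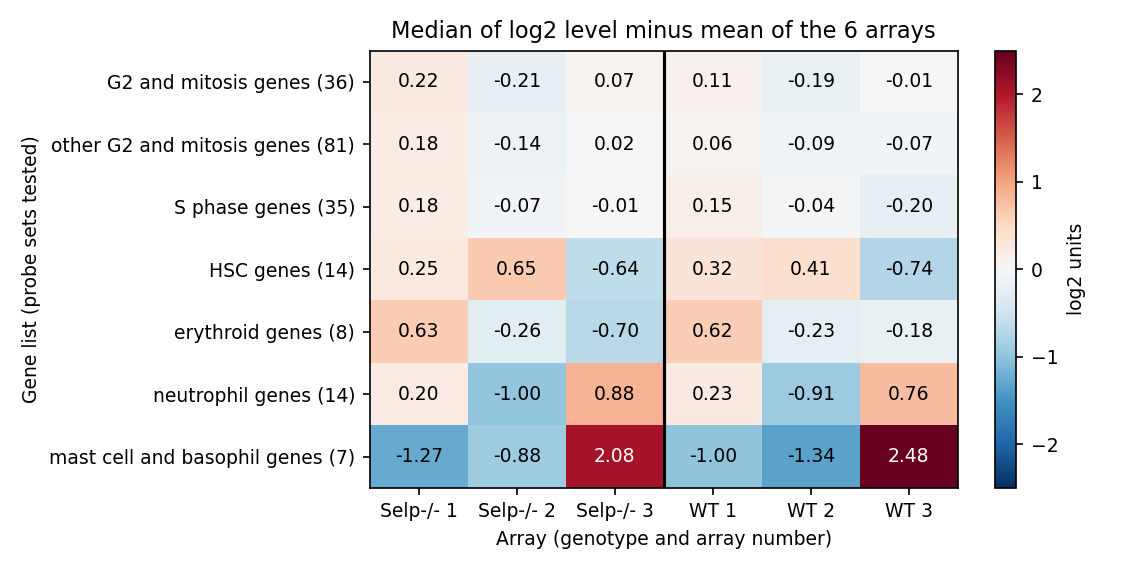
Each cell gives, for 1 gene list (rows, with the number of probe sets tested) and 1 array (columns, Selp-/- left and WT right), the median over probe sets of the log2 level minus its mean over the 6 arrays. G2 and mitosis genes span -0.21 to 0.22, against -1.34 to 2.48 for mast cell and basophil genes.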

How the data were processed

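Per the submitters' processing notes MAS5 was used, with no version given. The RNA was amplified before biotin labelling, per the labels' protocols. The deposited values are linear intensities of 28815 probe sets on 6 arrays, all multiples of 0.5, with medians that differ between arrays, so no scaling was visible and a scale factor of MAS5 stays unknown. The arrays give no read depth, and their number limits the precision. Probe sets were named from GEO's platform annotation with symbols brought to those of RefSeq (GRCm38.p6). Of the probe sets, 21780 had 1 symbol, 1605 several and 5430 none, and only those with 1 were named. Where a gene had several probe sets, the brightest stands for it and the others are given too. The genotype labels were not checked by Selp, which no probe set names.

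The intensities were corrected for background with normexp (offset 50), taken to log2 and then quantile normalized between arrays in limma 3.58.1 under R 4.3.3. Probe sets under the 40th percentile of the mean level were left out, which kept 17289. Over all of them 3 comparisons were fitted (lmFit, eBayes with a variance trend, two-sided, Benjamini-Hochberg, threshold 0.05): Selp-/- minus WT, and, with genotype as a term, array number 3 minus numbers 1 and 2, and number 1 minus number 2. Deviations from the genotype means correlated at 0.43, 0.53 and 0.81 between arrays of equal number 1, 2 and 3. Each was over 0.1, the rule set for using the numbers, which come from the sample titles, as a block. In the genotype comparison the block was an alternative. The main genotype fit left the numbers out, so the spread between them entered its SE. Over the 36 probe sets that SE had a median of 0.18, against 0.11 with the block. The rule cannot show pairing, as unequal numbers pass it too. Selp-/- 1 also correlated with WT 2 at 0.51 and Selp-/- 2 with WT 1 at 0.37. These correlations thus do not pair numbers 1 and 2 apart from each other, while the second principal component separated them in both genotypes. The fits were tested on simulated data. For the genotype fit without the block and for the 2 comparisons of array number, the simulated arrays held no differences between array numbers except planted ones. Those runs therefore do not speak for these fits on the real arrays. Per-array values follow a rule: Mki67, Top2a, Cdk1 and Ccnb1, and in each comparison the 6 genes with the largest and the 2 with the smallest difference, with others chosen after their values were seen. Of other lists, genes of smallest p are named, and Gata2, Foxo3, Fcer1a, Tpsb2 and Gzmb were named after their values were seen. Members, lists and tests were chosen with earlier results of these data known. Alternatives were no normalization, median centring, no background correction, other filters, no variance trend, each array left out, the replicate block, and the arrays numbered 1 and 2 alone.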

Additional observations from a re-analysis of the deposited data

How the results depend on the processing

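The genotype comparison called 0 of the 36 probe sets of G2 and mitosis genes under every alternative. Over all probe sets, the arrays numbered 1 and 2 alone gave 3 called higher and 13 lower with the replicate block, and 0 and 4 without it, against 0 and 0 in all arrays. With the replicate block on all 6 arrays the median difference of the 36 was 0.0552, the same as without it, with 0 called higher and 0 lower. Leaving out 1 array, without the block, moved the median difference between -0.0481 and 0.175, with array numbers then unequal between genotypes.

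For number 1 minus number 2, leaving out 1 array gave 0 to 68 probe sets called higher and 0 to 13 lower, none of them among the 36, and a median of the 36 from 0.35 to 0.457. Without normalization all probe sets shifted by 0.224, the median of the 36 was 0.651, 1267 were called higher, 27 of them among the 36, and 19 lower. Ccna2 then reached an adjusted p of 1.02e-05. Median centring gave a median of 0.499, with 24 called higher and 0 lower, no filter 3 and 0, the 20th percentile filter 15 and 2, and no variance trend 5 and 0. The fit on the arrays numbered 1 and 2 alone, chosen after seeing the data, gave 69 and 18.

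For number 3, leaving out 1 array gave 705 to 1390 probe sets called higher and 722 to 1816 lower, with 0 to 1 of the 36 in each direction and a median from 0.0132 to 0.133. Without normalization 3908 were called higher and 769 lower, against 1578 and 2025 with it, with 11 and 0 of the 36, and the median was 0.259. Median centring called 0 of the 36 lower. No filter and the 20th percentile filter called 0 of them higher. Genotype differences shifted by 0.108 and number 3 differences by 0.2 over all probe sets without normalization. The cause of these changes was not tested.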
